A study of Mus musculus with 14 samples.

Results

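Whole-lung expression was compared between mice given injurious mechanical ventilation alone, labelled VALI, and unventilated mice labelled PBEF+/-. The members are the 4 arrays titled VALI and the 3 arrays titled PBEF+/- that carry no ventilation, 7 of the 14 arrays of the series. They were taken by title, with earlier results of these data known. VALI mice were ventilated for 4 hours at a tidal volume of 40 ml/kg per the sample labels, while the series text gives 30 ml/kg. PBEF+/- mice are labelled as not ventilated. Mice of both groups were 18-22 weeks old, as were those of the 4 unventilated Control arrays given PBS, whose levels are quoted here as background. The remaining 3 arrays, titled VILI PBEF+/-, are labelled as mice of 8-12 weeks ventilated for 4 hours at 40 ml/kg. They enter the fit, the filter and the means over all arrays, but not the comparison itself. Strain, sex and pooling are not stated in the labels, and nothing says that each array is a separate animal, so p-values measure only the spread between these samples. The name PBEF+/- has the form of a heterozygous genotype, whereas the series text speaks of recombinant human PBEF given into the trachea, and the labels do not say which applies. Arrays are named throughout as they are labelled.

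PBEF, pre-B-cell colony-enhancing factor, is the product of Nampt, the enzyme that sets the rate of NAD salvage, and it is also found outside cells as a cytokine-like protein. Ventilation at high tidal volume overstretches alveolar walls and is known to set off cytokine release, neutrophil entry, oxidative stress and leakage across the endothelium. Interleukin-6 is a widely used readout of that injury. The 7 arrays carried lung transcripts as labelled: Sftpc, the surfactant protein of alveolar type II cells, read 15.45 to 15.64 on the log2 scale in all of them.

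Il6 and Nampt did not follow the group labels. Il6 read 9.60, 9.84, 9.85 and 2.78 in VALI replicates 1 to 4. In PBEF+/- replicates 1 to 3 it read 2.10, 2.56 and 10.87. The array labelled VALI replicate 4 therefore lay near the Control range of 2.09 to 2.45, and the array labelled PBEF+/- replicate 3 lay above every VALI array. Nampt, on its most abundant probe set, read 10.05, 9.91, 10.54 and 9.25 in VALI and 9.34, 9.21 and 10.71 in PBEF+/-, against 9.95 to 10.36 in Control. Its low values were those of VALI replicate 4 and of PBEF+/- replicates 1 and 2, and the groups overlapped. On the other Nampt probe sets, the same 3 arrays were again the lowest of the 7, at 8.53 to 8.88 and at 4.95 to 5.16. Where these probe sets lie relative to any altered part of the gene is not given in the sources used here, so the level alone is no check of a genotype.

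As labelled, the log2 difference of VALI minus PBEF+/- was 2.84 ± 2.01 (SE) for Il6 and 0.19 ± 0.41 (SE) for Nampt. An exact two-sided permutation test of the 7 arrays gave p = 0.629 for Il6 and p = 0.8 for Nampt, where 35 splits exist and 0.0571 is the smallest p they allow. Neither difference exceeded the spread between replicates.

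**Figure D1:**
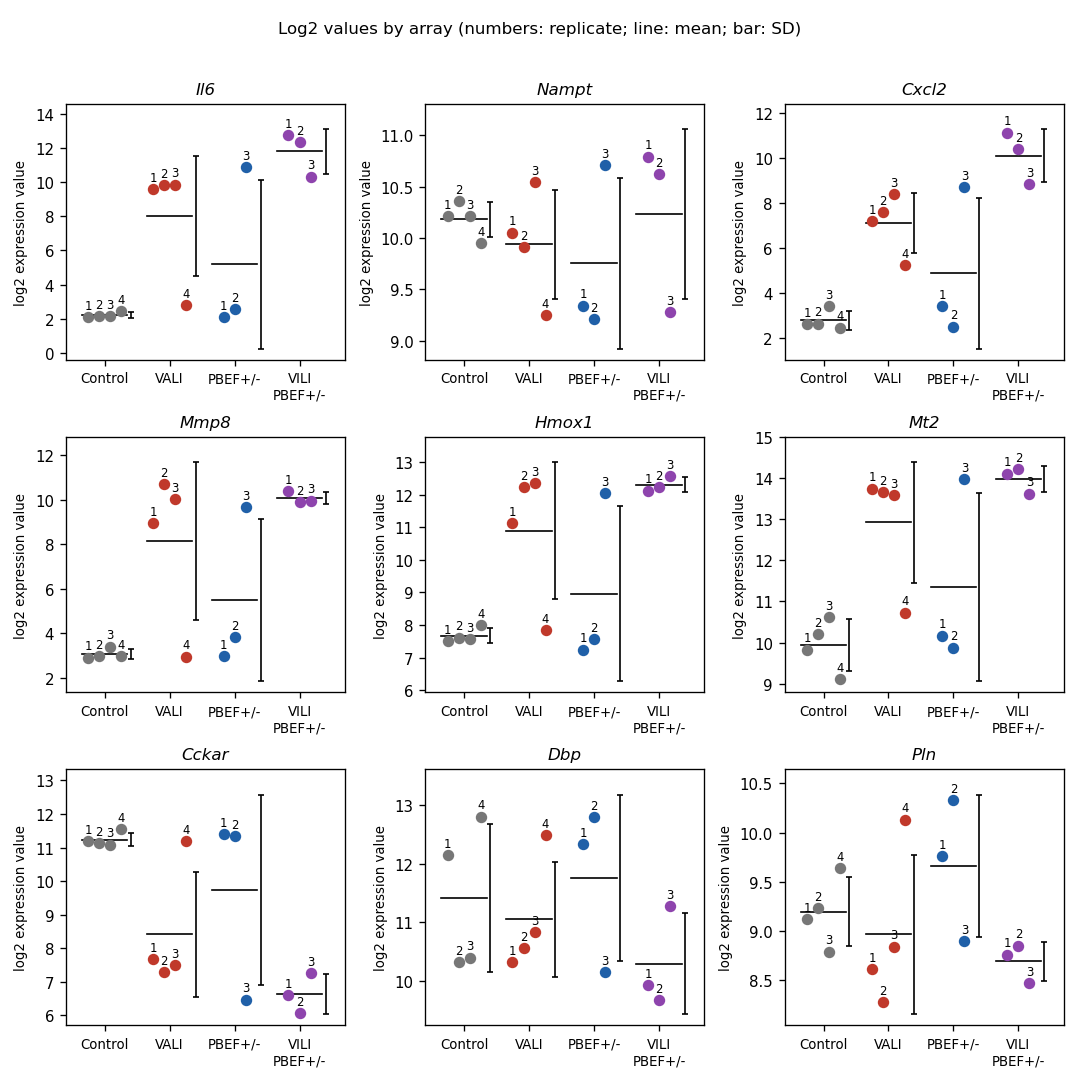
Log2 expression value (y axis) of 9 genes in each array of the 4 groups (x axis; the 3 arrays titled VILI PBEF+/-, from ventilated mice of 8-12 weeks, enter the fit and are shown for reference); each point is 1 array with its replicate number, horizontal lines are group means and bars are SD. For Il6, Cxcl2, Mmp8, Hmox1 and Mt2 the point of VALI replicate 4 lies below the other VALI points and that of PBEF+/- replicate 3 lies above the other PBEF+/- points, and for Cckar, Dbp and Pln the reverse is seen.

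With the arrays as labelled, limma called 0 of 11360 genes at an adjusted p under 0.05 (0%), and 447 genes (3.93%) had an unadjusted p under 0.05. That count of 447 was 179 without PBEF+/- replicate 2, 284 without VALI replicate 1, 824 without PBEF+/- replicate 1, 1166 without VALI replicate 4 and 2361 without PBEF+/- replicate 3. The smallest adjusted p was 0.848. The median log2 difference over all genes was 0.03 and the median absolute difference was 0.14, against a median standard error of 0.18. The values of the 4 VALI arrays and the 3 PBEF+/- arrays did not overlap for 319 genes (2.81%). VALI was the higher group for 218 of them (1.92%) and the lower for 101 (0.889%).

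None of the genes named for their order as labelled was called. Slpi, which encodes an inhibitor of neutrophil elastase made by airway lining cells, read 12.95, 11.07, 12.05 and 12.18 in VALI and 10, 10.88 and 10.96 in PBEF+/-. All 4 VALI arrays were above all 3 PBEF+/- arrays and above the Control maximum of 10.61, and the log2 difference was 1.45 ± 0.37 (SE, unadjusted p = 0.00172 in limma). Gpnmb, a glycoprotein of activated macrophages, read 8.05, 6.63, 9.21 and 8.27 against 6.50, 6.62 and 6.61, a difference of 1.46 ± 0.43 (SE) in which VALI replicate 2 lay only just above the PBEF+/- arrays. C1qb, a chain of complement C1q that macrophages make, read 11.76, 11.61, 11.56 and 11.98 against 11.11, 11.12 and 11.12. Its difference was 0.61 ± 0.18 (SE), and Control spanned 10.62 to 11.43.

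In the other direction, E2f5, a transcription factor of the E2F family that restrains the cell cycle, read 10.02, 9.74, 9.68 and 9.51 in VALI and 10.31, 10.47 and 10.30 in PBEF+/-. The difference was -0.62 ± 0.16 (SE), and Control at 9.48 to 10.05 lay with VALI. Ivns1abp, which encodes an actin-binding kelch protein, had the smallest p of all and differed by 0.40 ± 0.10 (SE). Shmt2, the mitochondrial serine hydroxymethyltransferase of folate metabolism, differed by 0.56 ± 0.15, the epithelial transcription factor Ehf by 0.62 ± 0.18, and Fem1a, a substrate receptor of a ubiquitin ligase, by 0.40 ± 0.11 (SE each). All of these had groups that did not overlap. Other tested probe sets of some of these genes differed less, at 0.01 and -0.14 for E2f5, -0.04 for one of Shmt2 and 0.06 for one of Ehf, and their groups overlapped.

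**Figure D2:**
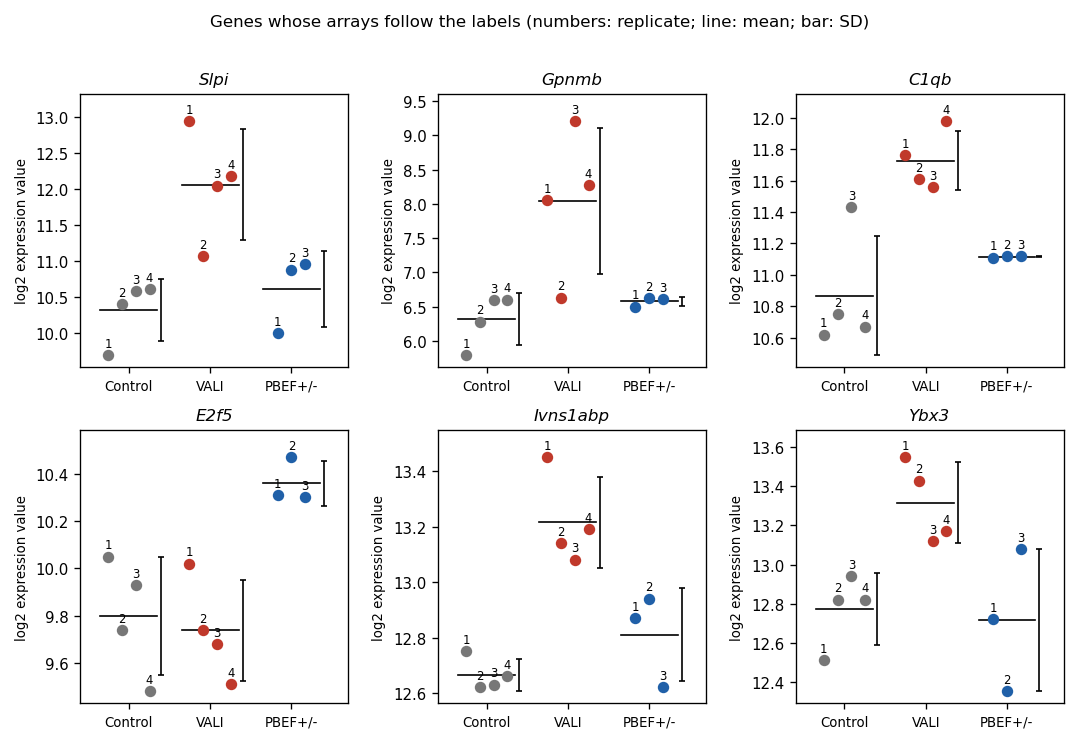
Log2 expression value (y axis) of 6 genes in the Control, VALI and PBEF+/- arrays (x axis); points are arrays with their replicate numbers, lines are means and bars are SD. In each panel all 4 VALI points lie on 1 side of all 3 PBEF+/- points, for E2f5 below and for the others above. The gap is smallest for Gpnmb, where VALI replicate 2 at 6.63 lies next to PBEF+/- replicate 2 at 6.62.

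Among the acute phase proteins, which liver and injured epithelium secrete, 0 of 14 tested genes were called and 6 had an unadjusted p under 0.05, against 3.93% over all genes, and the median log2 difference of the 14 was 1.23. Saa3, Lcn2 and Orm1 were the members whose groups did not overlap, against 2.81% over all genes, and they are named after their values were seen. Lcn2, lipocalin 2, which withholds iron from bacteria, read 13.64, 13.81, 14.71 and 13.78 in VALI and 12.03, 12.01 and 13.29 in PBEF+/-. Control arrays spanned 10.60 to 13.12, below every VALI array. Saa3, serum amyloid A 3, read 9.96, 10.13, 11.88 and 10.68 against 8.32, 7.40 and 9.52, with Control at 5.50 to 8.19. For both genes VALI replicate 4 lay inside the range of the other VALI arrays, and PBEF+/- replicate 3 was the highest of its group.

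Skeletal muscle and squamous keratin transcripts separated 2 VALI arrays from the other 5 arrays compared. Acta1, the actin of skeletal muscle, read 15.15, 9.40, 8.85 and 15.83 in VALI and 4.69, 4.72 and 9.41 in PBEF+/-, with Control at 4.61 to 4.69. VALI replicates 1 and 4 were far above the rest, while VALI replicates 2 and 3 and PBEF+/- replicate 3 formed a middle level. VILI PBEF+/- replicates 1 to 3, outside the comparison, read 9.55, 11.90 and 8.63. Myh1, a fast myosin heavy chain, read 13.71 and 14.35 in VALI replicates 1 and 4 and 2.55 to 2.68 in the other 5 arrays compared. Outside the compared arrays Myh1 reached 8.42. Krt4, a keratin of stratified squamous epithelium such as that of the oesophagus, read 14.50 and 14.05 in the same 2 arrays and 2.79 to 2.90 in the other 5. Its partner Krt13 read 14.73 and 13.64 there and at most 4.45 elsewhere.

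Over all 18194 genes with a probe set, 68 were at least 3 log2 units higher in both VALI replicate 1 and VALI replicate 4 than in each of the other 12 arrays. Of the 91 possible pairs of arrays, 87 had 0 such genes and the next highest pair had 2. Besides Krt4 and Krt13, the 68 included Krtdap and Lor of the cornified layer, Krt5 and Trp63 of basal epithelial cells, and Neb, Actn3 and Ryr1 of the muscle sarcomere and calcium release machinery. Only 13 of the 68 entered the tests, since the others exceeded the array median in too few arrays. The mean score of 8 tested skeletal muscle markers was 6.07 and 6.97 in VALI replicates 1 and 4 and -1.72 to -0.92 in the other 5 arrays compared, as a log2 deviation from the mean of all arrays. Outside the comparison, the ventilated array VILI PBEF+/- replicate 2 stood at 1.82. Of the stratified squamous genes, a list of 29 drawn up after the values were seen, 10 were tested and 5 had an unadjusted p under 0.05 as labelled, against 3.93% over all genes. Slpi, Lad1, S100a14 and Aldh3a1 were likewise highest in VALI replicates 1 and 4 or in replicate 1, at 12.95 for Slpi, 8.61 for Lad1, 8.21 for S100a14 and 11.25 for Aldh3a1 in VALI replicate 1. The part of that tissue in these differences was not tested.

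**Figure D3:**
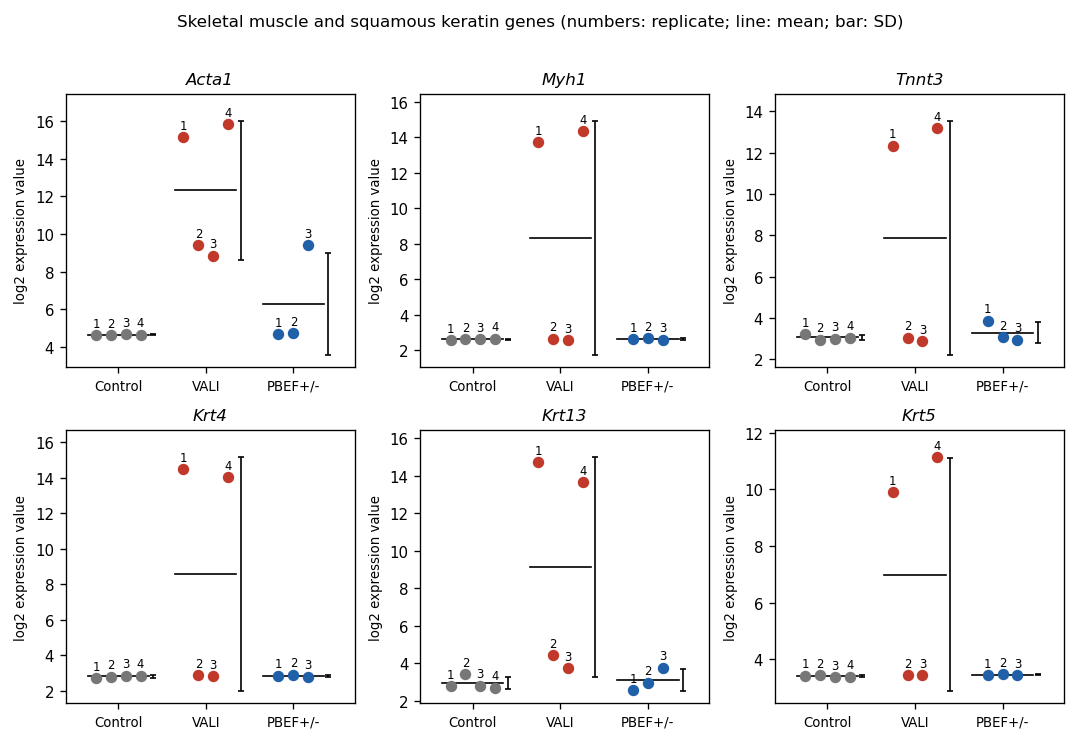
Log2 expression value (y axis) of 3 skeletal muscle genes and 3 keratins in the Control, VALI and PBEF+/- arrays (x axis); points are arrays with their replicate numbers, lines are means and bars are SD. VALI replicates 1 and 4 read 9.91 to 15.83 in all 6 panels, and apart from Acta1 the other arrays stay at or below 4.45.

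The comparison was repeated with VALI replicate 4 and PBEF+/- replicate 3 exchanged. One side then held VALI replicates 1 to 3 and PBEF+/- replicate 3 (the VALI side, n = 4), and the other held PBEF+/- replicates 1 and 2 and VALI replicate 4 (the PBEF+/- side, n = 3). These 2 arrays were singled out for their own Il6 and Nampt values, so every count of this fit is conditional on that choice, is a description, and does not show which labels hold. limma called 2837 of 11360 genes (25%), of which 1170 were higher on the VALI side (10.3%) and 1667 lower (14.7%). The share of higher genes among those called was 41.2%, and it was 55.4% when each array was first centred on its median, with 1427 higher (12.6%) and 1147 lower (10.1%) of 2574 called (22.7%). A change of at least 2-fold was seen for 348 of the higher and 405 of the lower genes. With both arrays left out instead, 3 arrays against 2, 1468 genes were called (12.9%), 724 as higher (6.37%) and 744 as lower (6.55%). Of these, 1413 were also called in the exchanged fit, all with the same sign. The exchanged fit keeps the remaining arrays on the same sides, so the agreement is largely set by construction. Counts with both arrays left out rest on the same choice of arrays, here and below, and are no independent check. Over all genes, the shares to set beside them are 6.37% higher and 6.55% lower. The exchanged sides did not overlap for 4094 genes (36%).

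Over the genes tested, VALI replicate 4 correlated best with PBEF+/- replicate 1 among the 7 arrays (r = 0.9732), and PBEF+/- replicate 3 correlated best with VALI replicate 2 (r = 0.9913). These are correlations across genes within pairs of arrays, and genes are not independent replicates. The sex of the animals moved with the exchanged sides. Xist, expressed from the inactive X chromosome, read 13.44 to 13.88 in 5 arrays, namely VALI replicates 1 to 3 with PBEF+/- replicates 1 and 3, and 2.64 and 2.63 in VALI replicate 4 and PBEF+/- replicate 2, where the Y-linked transcripts were present. All 4 arrays of the VALI side thus had the female pattern, against 1 of 3 on the PBEF+/- side. With that pattern as a covariate, 1263 genes were called.

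**Figure D4:**
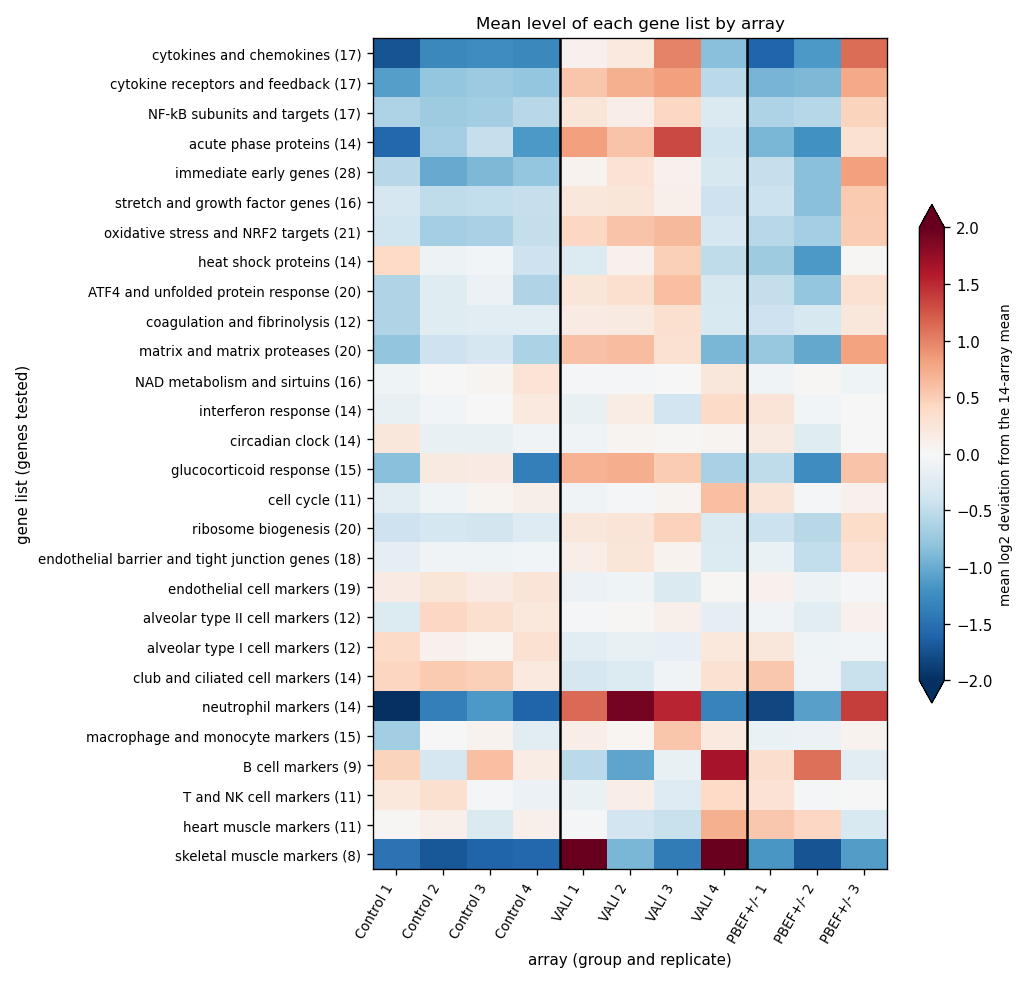
Mean level of each gene list (rows, number of genes tested in brackets) in 11 arrays (columns), coloured by log2 deviation from the mean over all 14 arrays and capped at 2 in either direction. In most response lists VALI replicates 1 to 3 and PBEF+/- replicate 3 are red while VALI replicate 4, PBEF+/- replicates 1 and 2 and Control are blue, and skeletal muscle is dark red in VALI replicates 1 and 4 alone.

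Cytokines and chemokines were mostly higher on the VALI side. Of 17 tested members 9 were higher, Il6 among them by the choice of the arrays, and 1 was lower, against 10.3% and 14.7% over all genes, with a median log2 difference of 1.42 where the median over all genes was -0.06. With both arrays left out the count was 7 higher and 1 lower. Il6 was at least 39.6-fold higher, with the low side set to the array median because its values lay below it. Cxcl2, a chemokine that draws neutrophils through Cxcr2, read 7.18, 7.58, 8.37 and 5.23 in the 4 VALI arrays and 3.39, 2.49 and 8.68 in the 3 PBEF+/- arrays, and the exchanged difference was 4.25 ± 0.63 (SE). Here VALI replicate 4 lay between the sides, above the Control maximum of 3.40. The related Cxcl1 behaved alike, at 8.24, 7.92, 9.55 and 7.18 against 5.97, 5.65 and 9.67, with Control at 4.89 to 5.83 and an exchanged difference of 2.58 ± 0.54 (SE). Il33, an alarmin of epithelial and endothelial nuclei, was higher by 1.17 ± 0.26 (SE). Cxcl12, which holds leukocytes and progenitors through Cxcr4, was the lower member, at no more than 10.30 in VALI replicates 1 to 3 and 10.88 to 11.47 in the other 4 arrays. Its call was lost on centring each array on its median.

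The promoters of Il6, Cxcl1 and Cxcl2 are shown because they were the named genes with a match to the NF-kB motif (GGGA, any base, then TTTCC), 3 of 101 named genes for which a window was at hand. NF-kB is the transcription factor that drives many cytokine genes. Each sequence holds the 250 bases before the gene's start, 5′ to 3′ on the plus strand of GRCm38.p6 as given by RefSeq, with the match in capitals. Both strands were searched, and 91 of 27025 promoters of this length (0.337%) hold the motif. The windows lie at chr5:30012864-30013113 for Il6, chr5:90890995-90891244 for Cxcl1 and chr5:90903649-90903898 for Cxcl2, and the matches begin at positions -44, -71 and -97 from the start.
Il6: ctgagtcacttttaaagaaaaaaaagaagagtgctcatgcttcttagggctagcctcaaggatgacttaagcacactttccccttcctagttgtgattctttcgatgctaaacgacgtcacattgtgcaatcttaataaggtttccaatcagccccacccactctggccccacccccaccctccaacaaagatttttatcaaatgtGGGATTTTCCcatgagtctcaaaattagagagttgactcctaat
Cxcl1: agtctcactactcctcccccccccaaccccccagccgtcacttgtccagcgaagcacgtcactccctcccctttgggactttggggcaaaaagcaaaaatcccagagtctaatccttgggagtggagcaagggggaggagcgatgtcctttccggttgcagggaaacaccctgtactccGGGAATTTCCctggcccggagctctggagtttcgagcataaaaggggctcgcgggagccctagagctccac
Cxcl2: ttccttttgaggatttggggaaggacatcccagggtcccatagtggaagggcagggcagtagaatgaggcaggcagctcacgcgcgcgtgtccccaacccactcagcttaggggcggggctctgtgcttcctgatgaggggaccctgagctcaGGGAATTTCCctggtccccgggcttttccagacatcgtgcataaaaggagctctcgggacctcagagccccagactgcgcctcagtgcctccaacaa
The Il6 window also holds 1 match to the AP-1 motif TGANTCA, which 6.87% of promoters hold, apart from the NF-kB match. A match describes the letters and is not evidence of binding in these lungs.

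Receptors and feedback genes of these cytokines gave 14 higher and 1 lower of 17 tested, with a median difference of 1.09, and 13 higher and 1 lower with both arrays left out. Socs3, the inhibitor that interleukin-6 signalling induces, read 13.35, 13.54, 13.62 and 11.16 in VALI and 10.47, 10.89 and 13.61 in PBEF+/-. VALI replicates 1 to 3 and PBEF+/- replicate 3 lay above all other arrays compared, and the exchanged difference was 2.69 ± 0.19 (SE). Il1r2, the decoy receptor that traps interleukin-1, read 9.42, 9.67, 9.41 and 6.55 in VALI and 3.11, 3.50 and 9.19 in PBEF+/-. Its value in VALI replicate 4 stood between the sides and above the Control maximum of 3.95, and the difference was 5.03 ± 0.64 (SE). Osmr, the oncostatin M receptor, was higher by 1.28 ± 0.11 (SE), and Lifr, the receptor of leukemia inhibitory factor, was the lower member.

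NF-kB subunits and targets gave 8 higher and 0 lower of 17 tested, falling to 4 and 0 with both arrays left out. Bcl3, an atypical inhibitor of the NF-kB family, was higher by 2.65 ± 0.22 (SE). Ptgs2, the inducible cyclooxygenase, was higher by 2.67 ± 0.36 (SE), and Selp, the P-selectin on which leukocytes roll, by 2.29 ± 0.42 (SE). Icam1, the adhesion molecule, read 13.13 to 13.54 in all 7 arrays and was not called. Of the acute phase proteins 7 of 14 were higher and 0 lower, and 8 were higher with both arrays left out. Ptx3, a soluble pattern recognition protein, read 9.19, 8.56, 9.09 and 4.04 in VALI and 4.06, 5.55 and 9.36 in PBEF+/-, a difference of 4.50 ± 0.46 (SE). Timp1, an inhibitor of matrix metalloproteinases, was higher by 3.49 ± 0.48 and Serpina3n, a protease inhibitor, by 1.73 ± 0.18 (SE each).

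**Figure D5:**
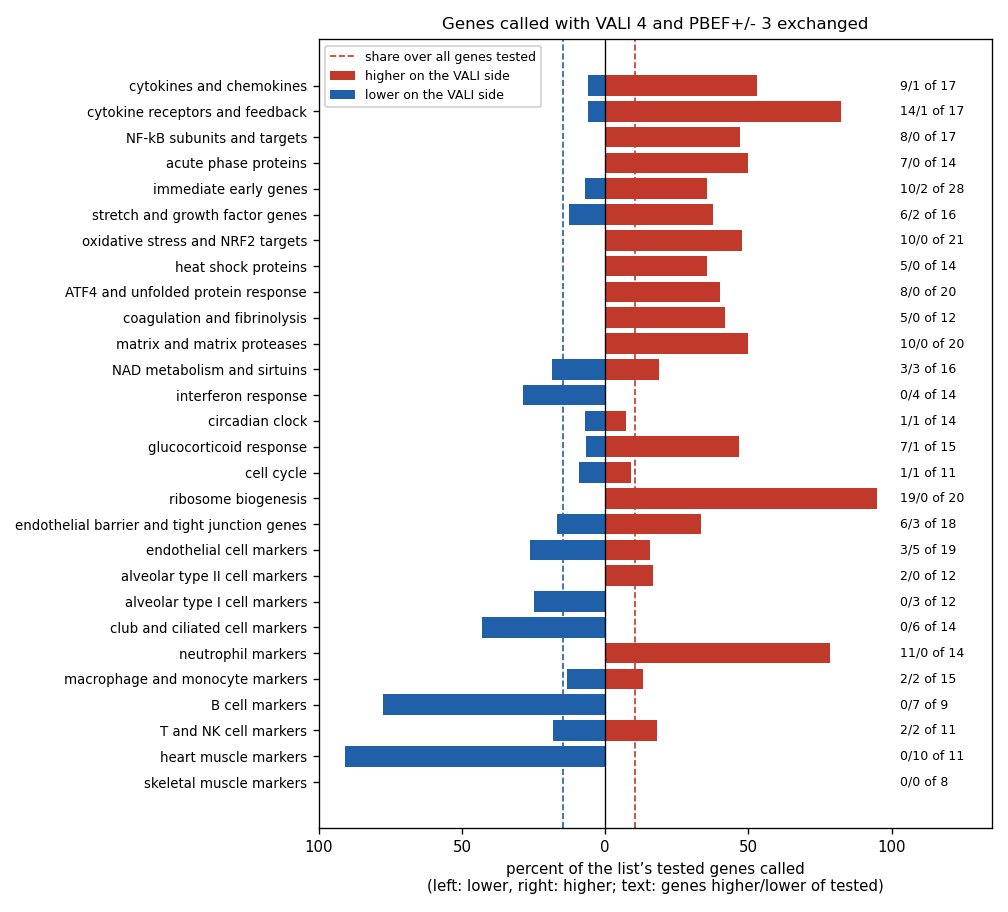
Percent of each list's tested genes called with the 2 arrays exchanged (x axis; right for higher and left for lower on the VALI side), with counts of higher and lower genes at the right and dashed lines at the shares over all genes tested, 10.3% and 14.7%. The longest bars to the right are ribosome biogenesis (19 of 20), receptors and feedback (14 of 17) and neutrophil markers (11 of 14), and those to the left are heart muscle (10 of 11) and B cell markers (7 of 9).

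Neutrophil transcripts were higher on the VALI side for 11 of 14 tested markers and lower for 0, with a median difference of 2.74, and 10 were higher with both arrays left out. In whole lung, a change in the number of cells of a type and a change in RNA per cell cannot be told apart. Mmp8, the collagenase stored in neutrophil granules, read 8.94, 10.70, 10.01 and 2.96 in VALI and 2.97, 3.84 and 9.68 in PBEF+/-. VALI replicate 4 lay within the Control range of 2.91 to 3.41, PBEF+/- replicate 3 lay with VALI replicates 1 to 3, and the fold was at least 34.4 with the low side set to the array median. Mmp8 passed the expression filter only through arrays in which it was high, so its call is a description. Cxcr2, the receptor of Cxcl1 and Cxcl2, was higher by 2.63 ± 0.25, Csf3r, the receptor of granulocyte colony-stimulating factor, by 2.85 ± 0.28, and Clec4e, a C-type lectin receptor of myeloid cells, by 3.69 ± 0.47 (SE each). S100a8, a subunit of the neutrophil protein calprotectin, read 14.32 to 14.84 on the VALI side and 10.45 to 12.63 on the other. Of the granule genes of immature neutrophils, Ngp and Ltf were tested and not called, and Mpo did not exceed 2.07 in any of the 7 arrays.

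Markers of resident and other blood cells were less uniform. Macrophage and monocyte markers gave 2 higher and 2 lower of 15, near the 10.3% and 14.7% over all genes, and 1 higher and 0 lower with both arrays left out. Cd14, the lipopolysaccharide co-receptor, was higher by 1.35 ± 0.26 and Mrc1, the mannose receptor, by 0.70 ± 0.23, while Ccr2, the receptor that draws monocytes, was lower at -1.05 ± 0.26 and Csf1r at -0.39 ± 0.10 (SE each). Of these 4 calls, only that of Cd14 was made with both arrays left out as well. That of Csf1r was also lost on centring each array on its median. B cell markers were lower for 7 of 9 and higher for 0, with a median difference of -1.48, and 6 were lower with both arrays left out. Ms4a1, which encodes CD20, read 8.55, 7.53, 7.97 and 10.11 in VALI and 9.25, 10.31 and 8.11 in PBEF+/-. VALI replicate 4 and PBEF+/- replicates 1 and 2 were the highest arrays, Control spanned 8.71 to 9.62, and the difference was -1.85 ± 0.34 (SE). Of the T and NK cell markers 2 were higher and 2 lower of 11, also near those shares over all genes. The higher ones were Il7r at 0.76 ± 0.17 and Klrb1b at 0.81 ± 0.18 (SE each). The lower ones were Cd8b1 and Nkg7, which were not called once each array was centred on its median or once both arrays were left out. Both higher calls were kept in each of those fits.

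Oxidative stress genes, many of them targets of the transcription factor NRF2, gave 10 higher and 0 lower of 21 tested, the same count as with both arrays left out. Hmox1, heme oxygenase 1, read 11.13, 12.24, 12.36 and 7.84 in VALI and 7.24, 7.57 and 12.05 in PBEF+/-, with Control at 7.51 to 8.00. The sides were more than 3 log2 units apart in every array, and the difference was 4.39 ± 0.25 (SE). Slc7a11, the cystine importer that feeds glutathione synthesis, was at least 10-fold higher with the low side set to the array median. Srxn1, sulfiredoxin, was higher by 3.45 ± 0.21 and Txnrd1, thioredoxin reductase, by 1.96 ± 0.12 (SE each). Genes of the same list that were not called included Sod1, Sod2, Cat and Nfe2l2, the gene of NRF2 itself. Nqo1, a commonly used NRF2 target, read 6.38 to 7.78 in VALI and 6.15 to 6.66 in PBEF+/- and was not called.

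Metallothioneins, which bind zinc, and zinc transport genes gave 3 higher and 0 lower of 6 tested, also with both arrays left out. Mt2 read 13.74, 13.65, 13.58 and 10.73 in VALI and 10.17, 9.88 and 13.98 in PBEF+/-, a difference of 3.48 ± 0.29 (SE) with no overlap between the exchanged sides. Mt1 was higher by 2.89 ± 0.25 and the zinc importer Slc39a14 by 2.10 ± 0.27 (SE each), while Slc30a1, a zinc exporter, and the metal sensor Mtf1 were not called. Of 20 genes of the ATF4 and unfolded protein response 8 were higher and 0 lower, and 6 were higher with both arrays left out. Those with the smallest p handle amino acids. Slc7a5, an importer of large neutral amino acids, was higher by 4.17 ± 0.56, Sesn2, a leucine sensor, by 1.77 ± 0.23, and Asns, asparagine synthetase, by 1.11 ± 0.15 (SE each). Heat shock proteins gave 5 higher and 0 lower of 14, and 3 higher with both arrays left out. Hspa1b, the inducible HSP70, was higher by 2.55 ± 0.61 (SE), but its Control arrays alone spanned 12.10 to 14.20.

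Immediate early genes, which respond within minutes to stretch or growth factors, gave 10 higher and 2 lower of 28, and 6 higher and 2 lower with both arrays left out. Fosl1, a subunit of AP-1, read 7.67, 8.58, 9.30 and 2.02 in VALI and 2.04, 3.33 and 9.21 in PBEF+/-, and Control did not exceed 2.13. Myc, a driver of growth and ribosome production, was higher by 3.87 ± 0.43 and Maff by 2.90 ± 0.30 (SE each). The classic members Fos and Egr1 were not called. Klf2 and Klf4, factors that shear stress maintains in endothelium, were the lower ones, Klf2 at 11.24 to 12.04 on the VALI side and 12.80 to 13.76 on the other. Lower genes were a smaller share of this list than the 14.7% over all genes. Ribosome biogenesis gave 19 higher and 0 lower of 20 tested, and 17 higher with both arrays left out. Rrp12 was higher by 2.19 ± 0.30, Gnl3, nucleostemin, by 1.03 ± 0.11, and Nop2, a methyltransferase of ribosomal RNA, by 0.83 ± 0.13 (SE each). Npm1, nucleophosmin, was the remaining member.

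Stretch and growth factor genes gave 6 higher and 2 lower of 16, and 5 and 1 with both arrays left out. The share of higher genes was above the 10.3% over all genes, and that of lower genes was near the 14.7%. Ereg, epiregulin, a ligand of the EGF receptor, read 8.09, 7.93, 7.70 and 4.10 in VALI and 3.51, 3.55 and 8.59 in PBEF+/-. The low side lay at or below the array median, and set to it the fold was at least 10.2. Egfr itself was higher by 1.69 ± 0.33 and Plaur, the urokinase receptor, by 2.10 ± 0.16 (SE each). Egfr varied within Control, however. It read 9.83 and 9.88 in Control replicates 2 and 3, of female pattern, and 8.32 and 8.39 in replicates 1 and 4, of male pattern. The VALI side began at 9.90. Another tested Egfr probe set differed by 0.11 and was not called. Coagulation and fibrinolysis genes gave 5 higher and 0 lower of 12, and 4 higher with both arrays left out. F3, the tissue factor that starts coagulation, read 13.11 to 13.56 on the VALI side and 10.90 to 11.56 on the other, and was higher by 2.10 ± 0.19 (SE). Plat, the tissue plasminogen activator, was higher by 1.73 ± 0.29 (SE). In Control it read 11.28 and 11.43 in the female-pattern arrays and 10.44 and 10.60 in the male-pattern ones. Of the matrix genes and proteases 10 of 20 were higher and 0 lower, and 7 with both arrays left out. Has1, a hyaluronan synthase, was at least 10.3-fold higher, Adamts4, an aggrecanase, at least 5.87-fold and Lox, which cross-links collagen and elastin, was higher by 2.30 ± 0.33 (SE). Lox spanned 10.12 to 11.70 in Control, close to the VALI-side minimum of 11.77. It read 11.65 and 11.70 in the female-pattern Control arrays and 10.12 and 10.67 in the male-pattern ones. Collagen genes Col1a1, Col1a2 and Col3a1 were not called.

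Endothelial barrier and tight junction genes gave 6 higher and 3 lower of 18, and 5 and 2 with both arrays left out. Here too the higher share was above the 10.3% over all genes and the lower share near the 14.7%. Cldn4, a claudin of epithelial tight junctions, read 9.05, 9.93, 9.13 and 3.10 in VALI and 3.14, 3.22 and 10.37 in PBEF+/-. The low arrays lay in or near the Control range of 2.54 to 3.20, and the fold was at least 29.6. Cldn7 was higher by 1.09 ± 0.14 and S1pr1, the endothelial receptor of sphingosine 1-phosphate, by 1.08 ± 0.19 (SE each). Tek, the angiopoietin receptor Tie2, was lower at -0.72 ± 0.09, Kdr, the main receptor of VEGF, at -1.25 ± 0.22 and Sox17 at -1.09 ± 0.19, while the lymphatic hyaluronan receptor Lyve1 was higher by 1.40 ± 0.20 (SE each). In Control, S1pr1 read 12.53 and 12.59 in the female-pattern arrays and 12.01 and 12.09 in the male-pattern ones. Lyve1 read 13.87 and 13.93 against 13.29 and 13.35 in the same order. Of 19 endothelial markers 3 were higher and 5 lower, against 10.3% and 14.7% over all genes, and 1 and 4 with both arrays left out. Cdh5, VE-cadherin, was not called.

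The NAD genes gave 3 higher and 3 lower of 16 tested, and 2 and 2 with both arrays left out. Without Nampt, whose values chose the arrays, 2 were higher and 3 lower, near the 10.3% and 14.7% over all genes. Nampt was higher on the VALI side, at 9.91 to 10.71 against 9.21 to 9.34, which follows from the choice of the arrays and is not tested here. Bst1, an enzyme that consumes NAD, was higher by 1.26 ± 0.30 and Nnmt, which methylates nicotinamide, by 0.87 ± 0.23 (SE each). Both mitochondrial sirtuins called, Sirt3 and Sirt5, were lower, at -0.77 ± 0.15 and -1.53 ± 0.26 (SE each), and Nadk2, the mitochondrial NAD kinase, was the other lower gene. Unlike the sirtuins, Nadk2 was not called once each array was centred on its median or once both arrays were left out. Naprt, which feeds nicotinic acid into NAD, and Sirt1 were not called.

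Glucocorticoid-responsive genes gave 7 higher and 1 lower of 15, and 6 and 1 with both arrays left out. Fkbp5, a chaperone of the glucocorticoid receptor that the hormone induces, read 13.19, 13.29, 13.10 and 10.09 in VALI and 10.42, 8.54 and 13.18 in PBEF+/-. Control spanned 8.72 to 12.04, so VALI replicate 4 and PBEF+/- replicate 1 lay inside the Control range and PBEF+/- replicate 2 just below it, and the difference was 3.51 ± 0.66 (SE). Control replicates 2 and 3, of female pattern, read 11.98 and 12.04. Replicates 1 and 4, of male pattern, read 9.97 and 8.72. Nr3c1, the receptor itself, was lower at -0.73 ± 0.14 (SE). Of 14 clock genes 1 was higher and 1 lower, below the 10.3% and 14.7% over all genes, and 1 and 0 with both arrays left out. Nfil3, a repressor of D-box genes, was higher by 3.87 ± 0.53, and Dbp, the activator it opposes, was lower at -2.08 ± 0.54 (SE each). In Control, though, Dbp spanned 10.31 to 12.81 and Nfil3 5.03 to 7.52. Both split by sex pattern there. Dbp read 10.31 and 10.39 in the female-pattern Control arrays and 12.15 and 12.81 in the male-pattern ones. Nfil3 read 7.52 and 7.35 against 5.19 and 5.03 in the same order. The interferon response gave 0 higher and 4 lower of 14, and 2 lower with both arrays left out. Ifit2 was lower at -0.85 ± 0.15 and Usp18, which removes ISG15, at -0.93 ± 0.21 (SE each).

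The largest lower genes on the VALI side included receptors and cilium genes. Cckar, the receptor of cholecystokinin, read 7.67, 7.30, 7.49 and 11.20 in VALI and 11.40, 11.35 and 6.47 in PBEF+/-, with Control at 11.09 to 11.54. The difference was -4.08 ± 0.28 (SE), and the sides were more than 3 log2 units apart. Dcdc2a, a doublecortin protein of cilia, read 2.93, 2.93, 2.72 and 5.53 against 6.98, 7.24 and 2.89. Pgr, the progesterone receptor, was lower by a factor of at least 3.5 with the low side set to the array median. Tekt4, Bbof1, Wdr19 and Ccdc151, genes of axonemes or of transport along them, were lower, Bbof1 at -2.57 ± 0.25 and Tekt4 at -2.70 ± 0.45 (SE each). Club and ciliated cell markers gave 0 higher and 6 lower of 14, and 4 lower with both arrays left out. Dynlrb2, a dynein light chain, was lower at -0.96 ± 0.10 and Cyp2f2, a cytochrome P450 of club cells, at -0.39 ± 0.09 (SE each), while Scgb1a1, the main secretory protein of club cells, read 15.85 to 16.04 in all 7 arrays. Alveolar type I markers gave 0 higher and 3 lower of 12, against 10.3% and 14.7% over all genes, and 2 lower with both arrays left out. Type II markers gave 2 higher and 0 lower of 12, with 0 called once both arrays were left out.

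Heart muscle transcripts, which can come with pulmonary veins or attached tissue, were lower on the VALI side for 10 of 11 tested markers and higher for 0, and 4 were lower with both arrays left out. Pln, phospholamban, read 8.61, 8.28, 8.84 and 10.13 in VALI and 9.76, 10.33 and 8.90 in PBEF+/-. VALI replicate 4 and PBEF+/- replicates 1 and 2 were the highest, also against Control at 8.79 to 9.64, and the difference was -1.42 ± 0.21 (SE). Tnnt2, cardiac troponin T, was lower at -0.75 ± 0.14 and Ryr2 at -0.84 ± 0.13 (SE each). Cell cycle genes gave 1 higher and 1 lower of 11, Pcna and Mcm2, no more than the 10.3% and 14.7% over all genes. Neither of them was called with both arrays left out. Of the fat markers 0 of 3 were called, and of the skeletal muscle markers 0 of 8. The exchange puts VALI replicates 1 and 4, whose muscle scores were 6.07 and 6.97, on opposite sides, so a muscle call was hardly possible. With both arrays left out 1 of the 8 was called, as higher, where 6.37% of all genes were. The part of adhering tissue in any difference was not tested.

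Of the 319 genes that did not overlap as labelled, 5 were also called with the 2 arrays exchanged, all with the same sign, and 314 were not called, where 25% of all genes were called. Genes that do not overlap one way must overlap the other way, since 1 array moves across from each side, so a low count is largely set by construction. The 5 were Ahcy, Ybx3, Ppp1r1b, Lonp1 and Ptar1. Ahcy, which clears S-adenosylhomocysteine, read 9.76, 9.69, 9.93 and 9.59 in VALI and 9.18, 8.90 and 9.45 in PBEF+/-, with differences of 0.56 ± 0.14 as labelled and 0.48 ± 0.16 exchanged (SE each). Ybx3, a cold shock domain protein that binds RNA, differed by 0.60 ± 0.17 and 0.55 ± 0.18 in the same order. Lonp1, the protease of the mitochondrial matrix, read 9.68 to 9.80 in VALI and no more than 9.68 in PBEF+/-, so that PBEF+/- replicate 3 all but reached the lowest VALI array. Ptar1, a prenyltransferase subunit, was the one lower in VALI, at 4.33 to 5.06 against 5.09 to 6.74. Gpx2, the glutathione peroxidase of epithelia, was called exchanged and had an unadjusted p of 0.00349 as labelled, with 10.77, 10.62, 10.92 and 10.11 in VALI and 9.31, 8.85 and 10.39 in PBEF+/-.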

How the data were processed

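Total RNA of mouse lung was labelled with biotin and hybridised to Affymetrix arrays from 6 µg per array, per the labels. The deposited values are log2 expression values per probe set, and MAS5 and GCRMA are both named in the submitters' processing notes, with no role for either. They were used as deposited, with array medians between 4.60 and 4.75 and no missing value; the number of arrays limits the precision. A genome build is not given in the sources used here.

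Each gene was represented by its probe set of highest mean. Genes above the array median in 3 or more of the 14 arrays were tested, 11360 of 18194. Il6, Mmp8, Cldn4, Fosl1, Has1, Slc7a11, Ereg and Adamts4 lay below the median in all Control arrays and on the exchanged PBEF+/- side. They passed only through arrays in which they were high, the VILI PBEF+/- arrays among them, so their calls describe and support nothing. limma 3.58.1 in R 4.3.3 fitted the 4 groups to all 14 arrays with empirical Bayes moderated variances (trended), and Benjamini-Hochberg adjustment ran over all genes tested. Calls are at adjusted p under 0.05. Differences are log2 values of VALI minus PBEF+/- with model standard errors. In the exchanged fit, the groups of VALI replicate 4 and PBEF+/- replicate 3 were swapped. The fit was tested on simulated data.

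The members, the 33 gene lists and the named genes were chosen with earlier results of these data known. Named genes are Il6 and Nampt, the 12 with the smallest p as labelled, the 12 largest higher and the 12 largest lower called genes of the exchanged fit whose sides did not overlap, up to 4 of each list by smallest p in that fit, and 10 genes that did not overlap as labelled and were not called exchanged. Other genes are given as array values or as not called. Of the named genes called exchanged, 46 had more than 1 tested probe set: 0 had a called probe set of the opposite sign and 13 had a probe set that did not pass. Lists are described by counts and medians, with no set test. Filters, scaling, probe set choice, covariates and left-out arrays were varied. Same-numbered arrays were not paired.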

Additional observations from a re-analysis of the deposited data

Results flagged for a closer look

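Among 40 genes named for their p or size, 17 had a VALI array that stood apart from the other 3 past the 95% critical value of Dixon's ratio for 4 arrays, the gap to the nearest array over the group's range. In all 17 it was VALI replicate 4, and all 17 are among the genes picked as called with that array exchanged, so the selection favours such a gap and the usual chance rate of about 1 group in 20 does not apply. It was the lowest array for Il6 (0.966), Doc2b, a calcium sensor of vesicle release (0.944), Has1 (0.942), Il1r2 (0.915), Ptx3 (0.878), Cldn4 (0.872), Sfn, a 14-3-3 protein of epithelia (0.848), Krtap17-1 (0.842) and Prss22 (0.831). It was the highest array for Hs6st2, a heparan sulfate sulfotransferase (0.940), Dcdc2a (0.925), Ccdc151 (0.924), Wdr19 (0.920), Cckar (0.905), Tmem200a (0.899), Shisa2 (0.872) and Pgr (0.871). PBEF+/- has 3 arrays and was not examined this way.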

How the results depend on the processing

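As labelled, 0 genes were called under no filter, stricter filters, the 7 arrays alone, no variance trend, quantile normalisation, median centring, all probe sets, array weights, the sex pattern as a covariate and the replicate block. Leaving out 1 array at a time gave 0 to 11 called genes, the 11 without PBEF+/- replicate 3 (10 higher, 1 lower in VALI). Leaving out both VALI replicate 4 and PBEF+/- replicate 3 gave 1468, and exchanging them gave 2837. Both counts are conditional on the choice of these arrays. The 447 genes with an unadjusted p under 0.05 were 180 with the 7 arrays alone, 816 with the block and 2379 with array weights. Nampt, 0.19 as labelled, changed sign in 3 fits without 1 array, at -0.013, -0.020 and -0.084. With both arrays left out it was 0.896 and not called (adjusted p = 0.122 in limma), and those arrays were chosen in part for Nampt itself.

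With the arrays exchanged, 2013 to 2966 genes were called when 1 array was left out. Array weights gave 4676, the replicate block 1806, the sex pattern as a covariate 1263, leaving out both exchanged arrays 1468, and leaving out VALI replicates 1 and 4, chosen after seeing the data for their muscle transcripts, 1810. The causes were not tested. Deviations of same-numbered arrays from their labelled group means correlated at r = -0.198, -0.296 and 0.316. VALI replicate 4 and PBEF+/- replicate 3 (r = -0.693) shape these means. The values therefore cannot show whether the numbers pair the arrays. Of 119 named genes called exchanged, 0 changed sign under any alternative; the sex covariate ended 24 calls and the block 16. The exchanged sides hold 4 and 3 arrays and differ in sex pattern, and 10000 genes (88%) had a larger standard error as labelled.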

Other observations

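Genes beside Nampt were examined as values. Of the 20 genes on each side of it in the RefSeq gene order (GRCm38.p6), 14 had a probe set and 10 were tested. As labelled, 0 of the 10 had an unadjusted p under 0.05 in limma, and their log2 differences ran from -0.46 to 0.52. With the arrays exchanged 3 of the 10 were called, where 25% of all genes were, Ccdc71l as higher and Cdhr3 and Efcab10 as lower. Ccdc71l spanned 9.60 to 10.55 in VALI and 9.49 to 10.15 in PBEF+/-. Cdhr3, a cadherin of ciliated cells, read 7.05, 7.43, 7.94 and 8.34 against 8.24, 8.55 and 7.64.

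Egr1, the immediate early transcription factor, was above Control in all 7 arrays, and it is named after its values were seen. It read 12.50, 12.94, 12.56 and 12.62 in VALI, 12.08, 12.00 and 13.75 in PBEF+/-, and 10.31 to 11.29 in Control.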
